A study of Mus musculus with 8 samples.

Results

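Forkhead transcription factors that are active in mesenchyme were followed in mouse embryonic fibroblasts (MEFs) lacking the Hippo kinase Lats2. The set held 10 genes (Foxc1, Foxc2, Foxd1, Foxd2, Foxf1a, Foxf2, Foxl1, Foxp1, Foxp2 and Foxs1), and its members were taken as every gene probe of the array that carried one of these names. Of these, 9 had a probe, with 13 probes in all out of 41174 gene probes and 27745 gene names. Foxs1 stands in the files under its older name Fkhl18 and was found through its RefSeq accession, Foxf1a is the gene that RefSeq lists as Foxf1, and no probe was named Foxl1. The members were chosen by the ratio between the genotypes in these same arrays, Foxc2 being the gene that led to them, so their ratios are given below as a description and without a test.

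The study compared MEFs of Lats2-/- embryos with MEFs of Lats2+/+ (wild-type) littermates, all of strain C57BL/6J, cultured in serum-containing DMEM with no treatment. In each of 3 litters, numbered 112, 116 and 121, the RNA of 1 Lats2-/- clone and 1 Lats2+/+ clone was hybridised together on two-colour Agilent arrays with the dyes swapped, on 2 arrays each for litters 112 and 116 and 4 arrays for litter 121. This gives 6 extracts on 8 arrays, and the litter is the replicate (n = 3). Each genotype in a litter is 1 clone, so a difference between genotypes and a difference between 2 clones cannot be told apart within a litter, and the embryonic age is not given in the sources used here. The arrays of litters 112 and 116 share a slide and those of litter 121 fill another, so that slide and litter cannot be told apart for litter 121.

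Forkhead factors bind DNA through a winged-helix domain, and several of them mark particular mesenchymal fields of the embryo. Foxc1 and Foxc2 are close paralogs that act in paraxial mesoderm, in somites, in the cardiovascular system and, for Foxc2, in lymphatic vessels and their valves. Foxf1 and Foxf2 are targets of hedgehog signals in the mesenchyme beneath epithelia, Foxd1 marks kidney stroma, and Foxs1 is known from vessel-associated and neural crest-derived cells. Foxp1 and Foxp2 are widely used repressors. Several of these genes lie next to each other in the genome, Foxf1 with Foxc2 and Foxl1 in one cluster and Foxq1 with Foxf2 and Foxc1 in another. Lats2 phosphorylates the coactivators Yap and Taz, which act through TEAD factors.

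Foxc1, Foxf2 and Foxd1, whose ratios ran both ways between litters, had an upstream sequence in the RefSeq promoter table, and these are shown because the ratios of the 3 genes had the same order of signs by litter. Each line holds the 250 bases before the start site, 5′ to 3′ along the gene's strand, in build GRCm38.p6, with CG dinucleotides in capitals. All 3 genes lie on the plus strand, Foxc1 at chr13:31806396-31806645, Foxf2 at chr13:31625566-31625815 and Foxd1 at chr13:98353995-98354244.
Foxc1: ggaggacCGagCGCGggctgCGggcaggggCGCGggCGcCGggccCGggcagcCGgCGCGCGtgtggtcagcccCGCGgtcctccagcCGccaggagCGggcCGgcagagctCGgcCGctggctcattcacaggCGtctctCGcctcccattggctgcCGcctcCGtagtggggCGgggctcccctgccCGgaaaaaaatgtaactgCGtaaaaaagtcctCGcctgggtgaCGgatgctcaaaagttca
Foxf2: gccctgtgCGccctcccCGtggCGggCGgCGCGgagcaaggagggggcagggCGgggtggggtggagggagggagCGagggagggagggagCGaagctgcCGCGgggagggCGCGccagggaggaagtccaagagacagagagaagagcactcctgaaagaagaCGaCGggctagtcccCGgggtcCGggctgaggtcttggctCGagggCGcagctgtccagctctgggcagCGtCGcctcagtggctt
Foxd1: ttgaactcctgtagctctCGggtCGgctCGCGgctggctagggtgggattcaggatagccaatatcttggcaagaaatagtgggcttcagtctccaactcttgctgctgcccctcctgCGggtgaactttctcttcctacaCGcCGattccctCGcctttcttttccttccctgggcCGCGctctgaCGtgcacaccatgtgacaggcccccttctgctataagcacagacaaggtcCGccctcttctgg

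The Foxc1 window held 29 CG dinucleotides, the Foxf2 window 21 and the Foxd1 window 12, against a median of 6 over 32851 windows of the same length in the table. The windows were searched on both strands for GGAATG (the core of a TEAD site), TGTTTAC (a forkhead core) and ACCACCC (a GLI core), none of which contains another. No match to these letters was found in the 3 windows, while GGAATG stood in 12.6% of all windows, TGTTTAC in 3.17% and ACCACCC in 3.92%. Foxd2 and Foxp1 were also in the table, and 1 of the 3 Foxp1 windows held GGAATG. Foxc2, Foxf1, Foxl1, Foxp2 and Foxs1 were not printed.

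The signals below are log2 intensities after background correction and normalization, and each ratio is the log2 ratio of Lats2-/- over Lats2+/+, averaged over the arrays of a litter. A spot is called well above background by the scanner software's own flag. A probe was kept where, for one genotype or the other, most arrays carried that flag in 2 or more extracts, which held for 22642 probes. Of the 13 forkhead probes 9 were kept, covering 7 genes. Foxf1a and Foxp2 had no kept probe. Over all kept probes the median SD of the ratio between litters was 0.25 and the median ratio was 0.01. The share of gene spots well above background ran from 53.5% to 60.3% per array in the Lats2-/- channel and from 52.9% to 61.3% in the wild-type channel, no gene spot was saturated, and the number of litters limits the precision.

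The targeted gene was checked first. Lats2 had 4 probes, and the probe at chr14:56676512-56676571 (coordinates of the array annotation, build mm8) had ratios of -1.33, -1.05 and -0.56 in litters 112, 116 and 121. The other 3 probes lie near chr14:56644080-56644139, and their ratios ran from -0.70 to -0.18 in litters 112 and 116 but from 0.80 to 1.17 in litter 121. The part of the gene that was removed is not given in the sources used here, and a probe outside it checks nothing. Extracts are therefore named by their labelled genotype throughout, for litter 121 above all.

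Foxc2 was lower in the Lats2-/- extract of every litter. Its probe, A_51_P196444 at chr8:124004770-124004829 (mm8), gave log2 signals of 9.92, 10.52 and 9.45 in the Lats2+/+ extracts of litters 112, 116 and 121. In the Lats2-/- extracts of the same litters the signals were 7.97, 8.29 and 6.16. The groups did not overlap, and the highest Lats2-/- signal lay 1.17 below the lowest wild-type signal.

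The Foxc2 ratios were -1.95, -2.23 and -3.29, that is 3.86-fold and 4.70-fold lower in litters 112 and 116. In litter 121 the probe was well above background on 0 of 4 arrays in the Lats2-/- channel and on 4 of 4 in the wild-type channel, so only a bound can be given there, at least 9.72-fold lower. The bound sets the mean wild-type signal of a litter against the higher of the dim probe's own signal and the lowest signal called well above background on each array. With the measured value of litter 121 (-3.29) in place of its bound, the mean ratio over litters was -2.49 ± 0.71 (SD, n = 3), so that this mean is not exact in size. All 8 arrays gave a ratio below 0. The arrays of litter 112 ran from -2.07 to -1.83 and those of litter 116 from -2.39 to -2.08.

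Foxc2 was the 1 member at least 2-fold lower in each litter, and over all kept probes 7 of 22642 (0.0309%) were, a count that was 11 with an offset of 16 and 41 with the scanner software's processed signals. It was also the 1 member whose Lats2-/- signals all lay below its wild-type signals, where 689 kept probes (3.04%) did so. Nothing is read from these counts, since this contrast chose the gene. The mean Foxc2 ratio was -2.90 with a smaller offset in the background correction (16 in place of 50), and -3.96 with the signals as processed by the scanner software, where both the background correction and the normalization differ. In RNA from a culture, fewer cells expressing a gene and less RNA per cell cannot be told apart.

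**Figure D1:**
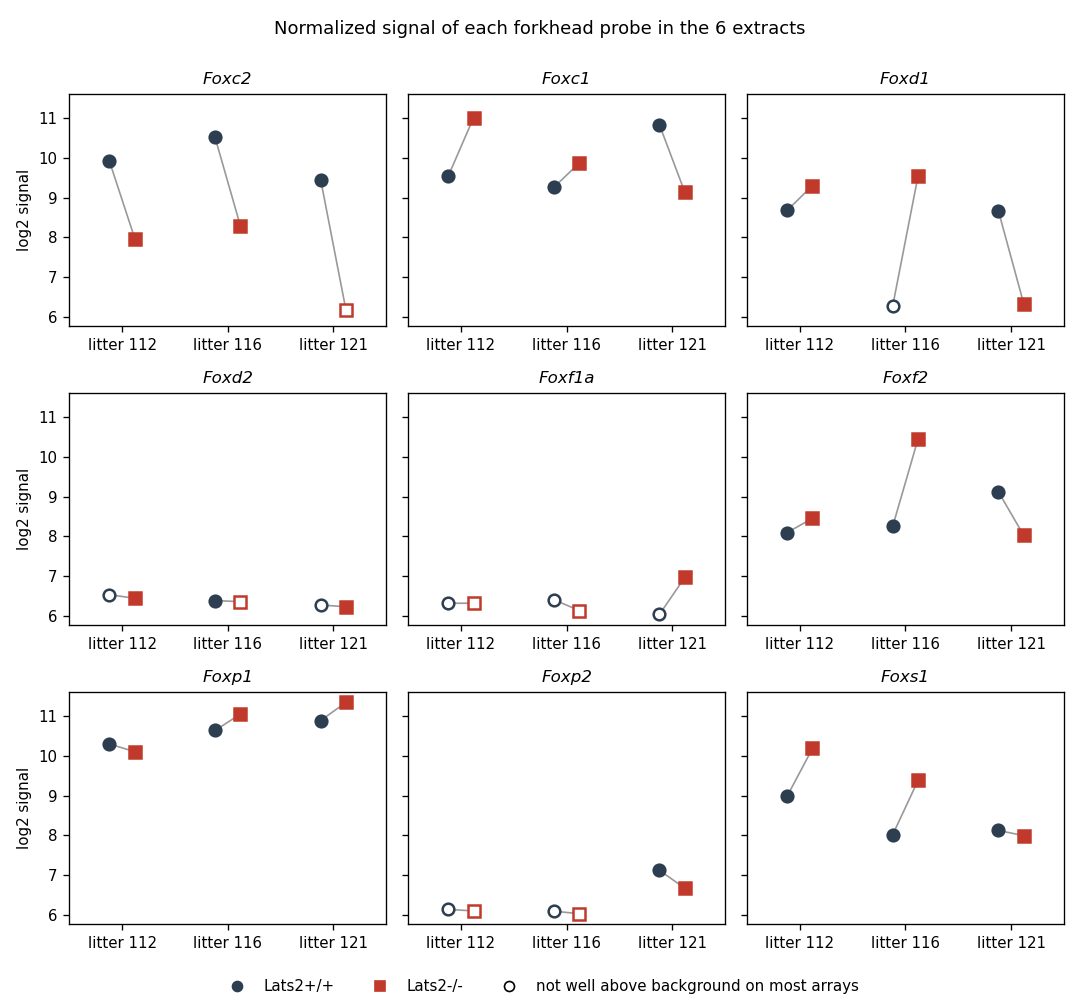
Normalized log2 signal (vertical axis) of 1 probe for each of 9 forkhead genes in the Lats2+/+ (circles) and Lats2-/- (squares) extract of litters 112, 116 and 121, with lines joining the 2 extracts of a litter and open symbols where most arrays were not well above background. Foxc2 is lower in the Lats2-/- extract of each litter, while Foxc1, Foxd1 and Foxf2 are higher in litters 112 and 116 and lower in litter 121.

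Foxc1, the closest paralog of Foxc2, had no such order. Its probe, A_51_P107686 at chr13:31816853-31816912, gave log2 signals of 9.55, 9.26 and 10.83 in the Lats2+/+ extracts of litters 112, 116 and 121. The Lats2-/- extracts gave 11.02, 9.87 and 9.14. Litter 121 thus held the highest wild-type and the lowest Lats2-/- signal of Foxc1, and the groups overlapped. The ratios were 1.47, 0.61 and -1.70, that is 2.78-fold higher, 1.53-fold higher and 3.24-fold lower, with a mean of 0.13 ± 1.64 (SD, n = 3). Every array was well above background in both channels. The arrays of litter 112 gave 1.47 and 1.48, those of litter 116 gave 0.57 and 0.65, and those of litter 121 ran from -1.77 to -1.64.

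Foxd1, a factor of stromal mesenchyme, ran in the same order with larger swings. The signals of its brighter probe, A_51_P237783 at chr13:99456571-99456630, were 8.68, 6.27 and 8.67 in the wild-type extracts. In the Lats2-/- extracts they were 9.31, 9.55 and 6.33. A single extract of each genotype was near background, the wild type of litter 116 (well above background on 1 of 2 arrays) and the extract labelled Lats2-/- of litter 121 (3 of 4 arrays). The ratios were 0.63, 3.28 and -2.34, with a mean of 0.52 ± 2.81 (SD, n = 3). The second probe, A_52_P128134 at chr13:99456654-99456713, gave 0.63, 2.85 and -2.11. In litter 121 that probe was not well above background on any array of the Lats2-/- channel, which makes it at least 4.32-fold lower there. The 2 probes thus had the same signs in every litter.

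Foxf2, a hedgehog-responsive factor of mesenchyme whose probe, A_51_P248865 at chr13:31638735-31638794, lies 178 kb from that of Foxc1, had the same order of signs. Its signals were 8.10, 8.26 and 9.13 in the wild-type extracts and 8.45, 10.46 and 8.03 in the Lats2-/- extracts. All arrays were well above background, and the groups overlapped. The ratios were 0.36, 2.20 and -1.10, with a mean of 0.49 ± 1.66 (SD, n = 3). The arrays of litter 112 gave 0.06 and 0.65, so the sign there rests on values that reach close to 0. Those of litter 116 ran from 1.98 to 2.43 and those of litter 121 from -1.41 to -0.82. As for Foxc1 and Foxd1, the wild-type extract of litter 121 was above the Lats2-/- extract and the other litters had the opposite order.

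Foxc1, Foxd1 and Foxf2 each passed 2-fold upward in 1 litter and downward in another, which makes 4 of the 9 kept forkhead probes, against 414 of 22642 kept probes (1.83%). The genes were chosen with these ratios known, so nothing is read from that share. Part of the spread was already present among wild-type extracts. The range over the 3 wild-type extracts was 1.57 for Foxc1, 2.41 for Foxd1 and 1.03 for Foxf2, against a median range of 0.47 and a 95th percentile of 1.74 over all kept probes. For Foxc2 the wild-type range was 1.07.

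**Figure D2:**
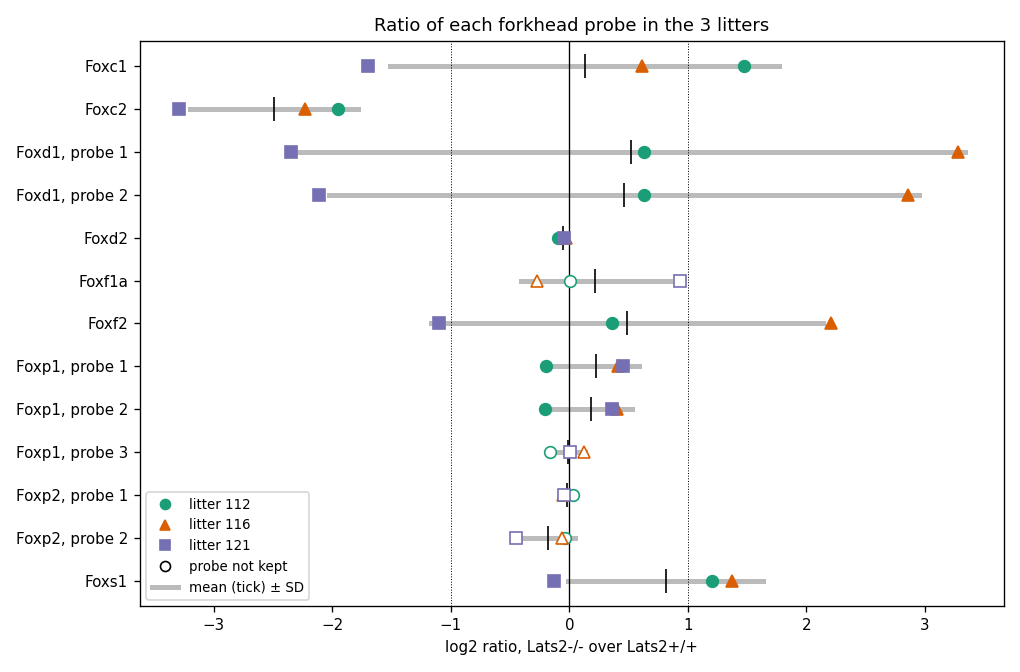
Log2 ratio of Lats2-/- over Lats2+/+ (horizontal axis) for the 13 forkhead probes, 1 symbol per litter, with a tick at the mean and a bar for ± SD over 3 litters, open symbols for probes that were not kept and dotted lines at 2-fold. Foxc2 is the 1 probe with all 3 litters beyond the 2-fold line on the same side.

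Foxs1 was higher in Lats2-/- cells of litters 112 and 116, with no settled sign in litter 121. Its probe, A_51_P296249 at chr2:152623543-152623602, gave signals of 8.99, 8.02 and 8.12 in the wild-type extracts and 10.19, 9.39 and 7.99 in the Lats2-/- extracts. All arrays were well above background. The ratios were 1.21, 1.37 and -0.13, so Foxs1 was 2.31-fold and 2.58-fold higher in litters 112 and 116, and the groups overlapped. In litter 121 the arrays of the same extracts ran from -0.50 to 0.21. The mean was 0.81 ± 0.82 (SD, n = 3).

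Foxp1, a widely expressed repressor, stayed under 2-fold in every litter. The signals of its brightest probe, A_52_P225700 at chr6:98892636-98892695, were 10.31, 10.65 and 10.90 in the wild-type extracts and 10.11, 11.06 and 11.35 in the Lats2-/- extracts. The ratios were -0.20, 0.41 and 0.46, with a mean of 0.22 ± 0.37 (SD, n = 3), and a second kept probe, A_52_P276792, gave -0.20, 0.40 and 0.36. The third probe, A_52_P604022, was well above background in litter 121 alone, on all arrays of both channels, and its ratios lay between -0.16 and 0.12. The mean of the brightest probe was 0.49 over the arrays with Lats2-/- in Cy5 and -0.046 over those with Lats2-/- in Cy3, so the sign of that probe's mean turned with the dye orientation. On the second kept probe the arrays of litter 112 ran from -0.27 to -0.13. Those of litter 116 ran from 0.31 to 0.49 and those of litter 121 from 0.32 to 0.40.

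Foxd2, a factor of paraxial and head mesenchyme, stayed close to background. Its probe, A_51_P279931 at chr4:114405236-114405294, was well above background on 6 of 8 arrays in the Lats2-/- channel and on 5 of 8 in the wild-type channel. Its signals lay between 6.22 and 6.53 in all 6 extracts, with ratios of -0.09, -0.03 and -0.05. With Foxc2 it was 1 of the 2 kept members with the same sign in each litter, where 6729 of 22642 kept probes (29.7%) had one, and nothing is read from that count. Its mean was -0.06 ± 0.03 (SD, n = 3), and that sign turned with 1 dye orientation.

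Foxf1a and Foxp2 were near background in most extracts. The Foxf1a probe, A_51_P262111, lies at chr8:123972758-123972817, 32.0 kb from the Foxc2 probe. It was well above background on 4 of 4 arrays in the extract labelled Lats2-/- of litter 121 and on 0 of 4 in the wild type of that litter, with signals of 6.96 and 6.03, which puts it at least 1.85-fold higher there. In the other litters 1 wild-type array of litter 116 carried the flag and no other did, and signals lay between 6.13 and 6.40. Foxf1a was not alone in this. Of the 41174 gene probes 464 were well above background on all arrays of the Lats2-/- extract of litter 121 and on none of its wild type, against 229 the other way, and the counts were 517 and 263 in litter 112 and 446 and 737 in litter 116. Other forkhead genes detected in that extract alone of its litter were Foxa2, Foxj1 and Foxo6, each on 4 of 4 arrays against 0 of 4. Of the Foxp2 probes, A_52_P56818 was well above background in litter 121 alone, on 4 of 4 arrays in each channel, with signals of 7.12 in the wild-type and 6.67 in the Lats2-/- extract. The other, A_51_P233753, was well above background on none of the 8 arrays in either channel.

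No kept probe passed an adjusted limma p under 0.05 (0 of 22642, 0.0%), while 1549 probes (6.84%) had an unadjusted p under 0.05. Genes around the set were read against these shares, from lists that hold no member. Other forkhead genes were kept for 17 of 31, and 0 of them had an unadjusted limma p under 0.05. Their median ratio was 0.02, beside 0.01 over all kept probes. Foxo1, a factor of insulin and stress signalling, was the 1 kept gene among them at least 2-fold both ways, with ratios of 0.15, -1.44 and 2.18. Foxa2, a factor of endoderm whose probe was not kept, had a wider swing, with 0.02, -2.63 and 4.98, and was well above background on all arrays in the wild type of litter 116 and in the Lats2-/- extract of litter 121 but on none in the other 4 extracts, so that each large ratio stands against a channel at background and is no measured fold. The signs of Foxo1 are opposite to those of Foxd1 and Foxf2 in litters 116 and 121.

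Genes described elsewhere as targets of Foxc1 or Foxc2 were kept for 7 of 12, with a median ratio of 0.11. In this list 1 gene was higher and 0 were lower at an unadjusted p under 0.05. That gene was Nfatc1, a factor of valve and lymphatic endothelium, with ratios of 0.36, 0.98 and 0.49. Its mean was 0.61 ± 0.33 (SD, n = 3; adjusted p = 0.71 in limma). Pecam1, Dll4, Hey2, Cxcr4 and Tbx1 had no kept probe. Angpt2, a vessel-remodelling ligand, had a ratio of -0.03 in litter 112. In litters 116 and 121 its wild-type channel was well above background on all arrays and its Lats2-/- channel was not on any. The wild-type and Lats2-/- signals were 6.46 and 6.28 in litter 116 and 7.39 and 6.20 in litter 121.

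Paraxial mesoderm and sclerotome factors were kept for 6 of 12, with a median ratio of 0.12 and 0 genes at an unadjusted p under 0.05. Scx, a tendon progenitor factor, had ratios of -1.03, -4.90 and 2.95. Its signs were thus opposite to those of Foxc1, Foxd1 and Foxf2 in every litter. Meox1, a somite factor, passed background in 2 extracts alone, those of Lats2-/- cells in litters 112 and 116.

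A list of hedgehog pathway genes, whose signals act on the Foxf genes, together with the BMP ligand gene Bmp4, was kept for 7 of 12, with a median ratio of 0.11. The ligands Shh, Ihh and Dhh and the target gene Gli1 had no kept probe. At an unadjusted p under 0.05, 1 gene was lower and 0 were higher. This was Gli3, a transducer of the pathway, with ratios of -0.23, -0.60 and -0.82. Its mean was -0.55 ± 0.30 (SD, n = 3; adjusted p = 0.71 in limma). Bmp4, no component of the hedgehog pathway, had ratios of 2.63, -0.76 and 2.52. Smo, Ptch1 and Sufu, a receptor component, the receptor and an inhibitor of the pathway, lay between -0.25 and 0.52 in all litters. Gli2, a transducer, had ratios of 1.06 in litter 116 and -0.28 in litter 121, the signs of Foxf2, and its wild-type channel was not well above background in litter 112. For Hhip, a binding inhibitor of the ligands, the wild-type channel was not well above background in litters 112 and 116, where the Lats2-/- channel was on all arrays. In litter 121 it was the other way, with the wild-type channel well above background on 3 of 4 arrays and the Lats2-/- channel on 1 of 4, and a ratio of -0.31.

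Neighbouring genes were examined to see whether the Foxc2 difference extended along chromosome 8. Within 1000 kb of the Foxc2 probe 15 of 23 genes had a kept probe, with a median ratio of -0.01, and within that distance of the Foxc1 probe on chromosome 13, 3 of 12 genes did, with a median of 0.08. Mthfsd was the 1 gene with a kept probe within 200 kb that was no member, 20.8 kb from the Foxc2 probe. Its signals were 9.77, 9.15 and 9.28 in the wild-type extracts and 8.37, 9.30 and 8.79 in the Lats2-/- extracts, and its ratios were -1.39, 0.15 and -0.49 (mean -0.58 ± 0.78, SD, n = 3; adjusted p = 0.76 in limma). Its ratio was thus below 0 in litters 112 and 121 and above 0 in litter 116, where Foxc2 was 4.70-fold lower. Gse1 and Map1lc3b, an autophagy gene, had an unadjusted p under 0.05, with mean ratios of 0.41 ± 0.24 and 0.43 ± 0.12 (SD, n = 3; adjusted p = 0.71 for each in limma). Of the 15 genes near Foxc2, 3 were above 0 in all litters and 1 was below 0 in all, the amino acid transporter gene Slc7a5, with -0.86, -0.29 and -0.11 (mean -0.42 ± 0.39, SD, n = 3; adjusted p = 0.73 in limma). None of the 15 was at least 2-fold lower in each litter.

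**Figure D3:**
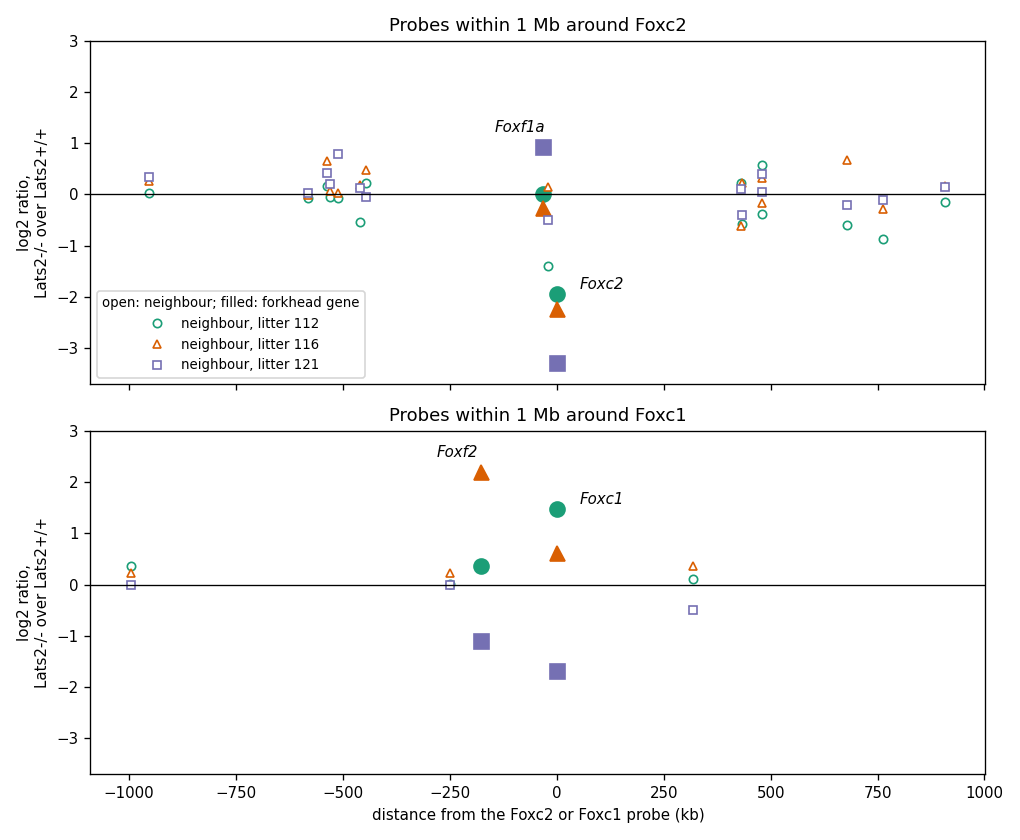
Log2 ratio of Lats2-/- over Lats2+/+ (vertical axis) against the distance in kb from the Foxc2 probe (top) or the Foxc1 probe (bottom), with large filled symbols for forkhead members, small open symbols for other genes with a kept probe, and 1 symbol shape per litter. The 3 Foxc2 values lie below all neighbours in the window, and Foxc1 and Foxf2 are both above 0 in litters 112 and 116 and below 0 in litter 121.

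The label of the cells was compared with markers. All 11 fibroblast and mesenchyme markers had a kept probe, among them Vim, Col1a1, Col1a2 and Pdgfrb. The log2 of their summed intensities was 18.55 to 19.27 in the wild-type and 17.97 to 19.09 in the Lats2-/- extracts. The brightest probes weigh most in it, and the summed signals of other marker lists below are the same measure. Their median ratios in litters 112, 116 and 121 were 0.13, 0.87 and -1.13, the same order of signs as Foxc1, Foxd1 and Foxf2, and the part of this shift in those ratios was not tested. That order was not shared by the whole list, since 4 of the 11 markers were above 0 in litters 112 and 116 and below 0 in litter 121, and 3 of 11 passed 2-fold both ways. Col3a1 had 0.13, 3.70 and -3.42, whereas Vim had 0.08, -1.19 and -0.07 and S100a4 had 0.15, -0.97 and -3.61. In litter 121 all of these markers but Fn1 (0.07) were below 0, with Pdgfra at -4.96, Thy1 at -3.66 and Twist1 at -2.74. The Pdgfra signal in that Lats2-/- extract was 6.30, well above background on 3 of the arrays. The part of these marker differences in the Foxc2 ratio of litter 121 was not tested. At an unadjusted p under 0.05 the 1 marker was Prrx1, a limb and mesenchyme factor, at -0.67 ± 0.14 (SD, n = 3; adjusted p = 0.71 in limma).

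Markers of other cell types were kept unevenly. Among endothelial markers Tek alone was kept of 6, and Kdr, Cdh5, Pecam1, Emcn and Tie1 were not. A probe that was not kept could still be detected in 1 extract. Kdr was well above background on 4 of 4 arrays in the Lats2-/- extract of litter 121, where Foxc2 was lowest, and on 0 of 4 in its wild type, with signals of 6.61 and 6.11. Among lymphatic endothelial markers Pdpn alone was kept of 4, and Prox1, Flt4 and Lyve1 were not. The signal of Tek was 6.38 to 6.68 in the Lats2-/- and 6.36 to 6.52 in the wild-type extracts, and that of Pdpn was 6.39 to 7.93 and 6.85 to 8.38. Foxc2 was detected in the wild-type extracts, while the lymphatic markers Prox1, Flt4 and Lyve1 had no kept probe. A probe that was not kept is not thereby absent. Prox1 was well above background on 1 wild-type array each of litters 116 and 121. In the Lats2-/- channel it was so on 1 array of litter 116 and 2 of litter 121. No epithelial (0 of 4) and no skeletal muscle marker (0 of 4) was kept. The epithelial cadherin Cdh1 was well above background on 4 of 4 arrays in the same Lats2-/- extract of litter 121 and on 0 of 4 in its wild type, with signals of 7.16 and 6.07, and the keratins Krt8 and Krt18 were so on 2 of 2 arrays in the wild-type extract of litter 116. The part of other cells in the Foxc2 ratios was not tested. Macrophage markers were kept for 2 of 4 (summed signal 7.24 to 7.73 in the Lats2-/- and 7.36 to 7.60 in the wild-type extracts), with Ptprc not kept. Neural crest and Schwann markers were kept for 4 of 4, at sums of 8.39 to 8.52 and 8.43 to 8.58 in the same order.

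Pericyte markers were kept for 3 of 6, and their summed signal was 10.21 to 11.05 in the Lats2-/- extracts and 11.52 to 11.91 in the wild-type extracts. Cspg4, a proteoglycan of pericytes and of many cultured mesenchymal cells, gave -2.10, -4.14 and -3.94, with a mean ratio of -3.39 ± 1.12 (SD, n = 3; adjusted p = 0.69 in limma). Rgs5, Abcc9 and Kcnj8 were not kept, and Notch3 and Anpep had means of 0.38 and 0.88. The summed difference thus came with Cspg4, whose ratio like that of Foxc2 was below -1 in each litter, and its part in the Foxc2 ratio was not tested. Chondrocyte markers were kept for 3 of 4 (summed signal 10.79 to 11.21 in the Lats2-/- and 9.64 to 11.85 in the wild-type extracts), with Sox9 at 0.71, 1.41 and -3.71, again with the signs of Foxc1.

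The genes whose signals were most like those of Foxc2 were found by the root mean square difference over the 6 extracts after each probe was centred on its own mean. They were Hmga1, an architectural chromatin protein (0.55), Rnf130, a RING finger protein (0.64), Cavin3, a coat protein of caveolae named Prkcdbp in the files (0.67), Grem1, a secreted BMP antagonist (0.71) and S100a4, a calcium-binding protein of fibroblasts (0.74). A probe with no change over the extracts would have a value of 1.44. Among members with a kept probe it was 1.39 for Foxd2, 1.60 for Foxc1, 1.68 for Foxf2, 1.69 for Foxp1, 1.75 for Foxs1 and 1.90 for Foxd1. Foxd2, whose probe was dim and nearly flat, was the 1 kept member under the value of a flat line. The 5 similar genes were picked for likeness over these same extracts, so that a low signal in the extract labelled Lats2-/- of litter 121, where Foxc2 was lowest, follows from the choice. Hmga1 had ratios of -0.49, -1.26 and -3.28, and Grem1 had -0.43, -1.55 and -3.11. In litter 112, where Foxc2 was at -1.95, Rnf130 was at -0.05 and S100a4 at 0.15. Cavin3 came closest to an even difference, with -1.04, -0.93 and -1.90.

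**Figure D4:**
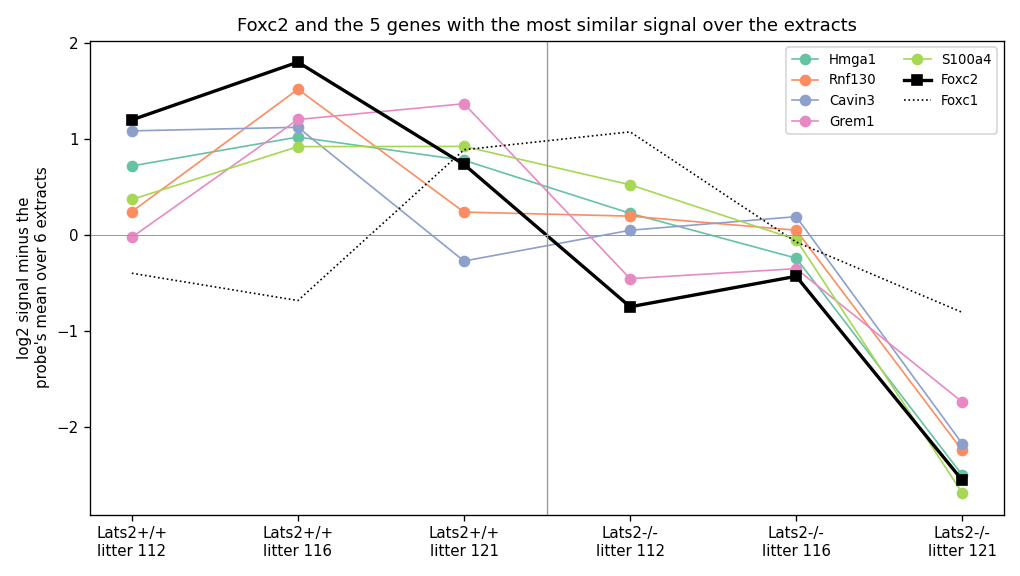
Log2 signal minus the probe's own mean over the 6 extracts (vertical axis) for Foxc2 (black squares), the 5 genes most like it (coloured circles) and Foxc1 (dotted), over the Lats2+/+ extracts of litters 112, 116 and 121 and then the Lats2-/- extracts in the same order. All 6 solid lines are lowest in the Lats2-/- extract of litter 121, which follows from how the 5 genes were picked, and Foxc1 is highest in the Lats2-/- extract of litter 112.

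The means were also taken without litter 112, 116 or 121 in turn. For Foxc2 they ran from -2.76 to -2.09, and their sign could not turn because all 3 litter ratios lay below 0. The Foxc1 mean was 1.04 without litter 121 and -0.54 without litter 112. The Foxd1 mean was 1.95 without litter 121 and -0.86 without litter 116, and for Foxf2 the matching values were 1.28 and -0.37. The sign of the other kept members held, with Foxs1 from 0.54 to 1.29, Foxp1 from 0.11 to 0.43 and Foxd2 from -0.070 to -0.038. For Foxd2, as for Foxc2, the sign could not turn, because all 3 litter ratios lay below 0.

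**Figure D5:**
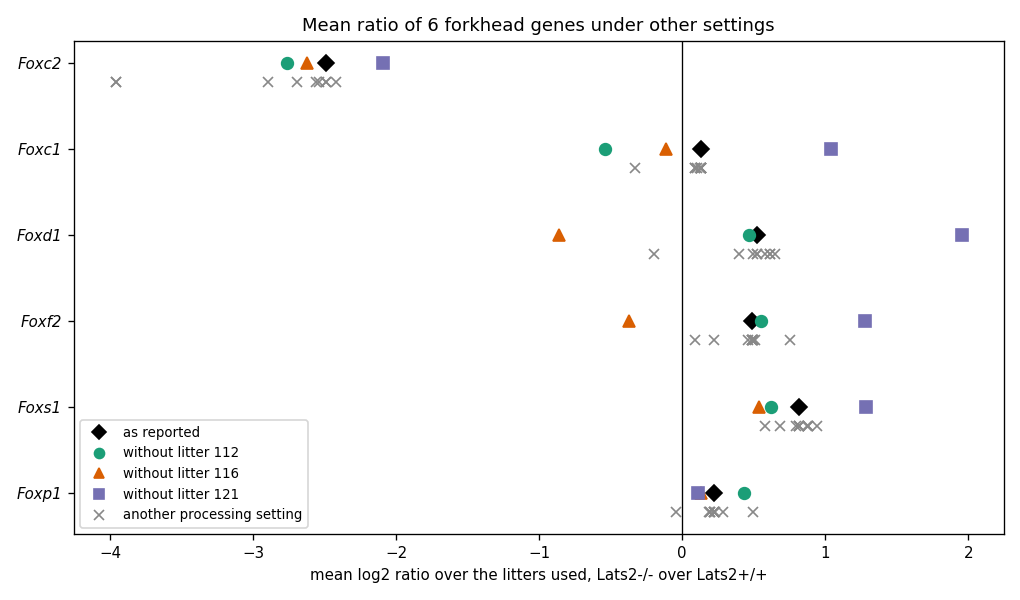
Mean log2 ratio of Lats2-/- over Lats2+/+ (horizontal axis) for 6 forkhead genes as reported (diamonds), without 1 litter (coloured symbols) and under other processing settings (crosses). Foxc2 means run from -3.96 to -2.09, on the side that all of its litters share, and Foxc1, Foxd1 and Foxf2, whose litters have mixed signs, have means on both sides of 0 when a litter is left out.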

How the data were processed

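Total RNA of 6 MEF extracts was hybridised by the authors to Agilent two-colour mouse arrays (design 14868). The deposited scanner files hold spot intensity values from Feature Extraction (10.7.3.1 per the file headers, 10.5.1.1 in the submitters' processing notes), and the deposited value table holds log10 ratios, which matched the software's own after turning them to Lats2-/- over Lats2+/+. From the mean and local background intensities a normexp correction (offset 50), loess within arrays, the turn to Lats2-/- over Lats2+/+, and averages over spots and then over the arrays of a litter were computed with limma 3.58.1 in R 4.3.3. Signals were scaled between arrays by Aquantile. Outlier spots (860) and control spots were left out. The 3 litter ratios of a probe were compared with 0 by limma's two-sided test, p-values were adjusted by Benjamini-Hochberg over 22642 kept probes, and the pairing of genotypes within a litter comes from the labels. A gene with several kept probes in a list is given by its brightest. Named genes were all members, Lats2, list genes with an unadjusted p under 0.05 and one sign in all litters, neighbours within 200 kb and the 5 genes most like Foxc2. Others were named after their values were seen (Foxo1, Foxa2, Foxj1, Foxo6, Kdr, Prox1, Cdh1, Krt8, Krt18, Angpt2, Scx, Meox1, Bmp4, Smo, Ptch1, Sufu, Gli2, Hhip, Slc7a5, Col3a1, Vim, S100a4, Fn1, Pdgfra, Thy1, Twist1, Sox9, Notch3, Anpep). Of the gene probes 24375 had an accession that matched RefSeq. Members and lists were chosen with earlier results of these data known. The script was tested on simulated data. Probe coordinates are those of the files (mm8).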

Additional observations from a re-analysis of the deposited data

How the results depend on the processing

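Over 12 alternatives the Foxc2 mean kept its sign. Nothing is read from that count, since this contrast chose the gene and leaving out a litter could not turn a sign that all litters share. The Foxc2 mean was -3.96 from Feature Extraction's processed signals or from the deposited value table, neither of which holds the offset of 50. It was -2.76 to -2.09 when 1 litter was left out. The Foxd2 mean turned to 0.013 with only the arrays that carried Lats2-/- in Cy3, and the mean of the brightest Foxp1 probe to -0.046 (0.49 in Cy5). The count of probes past the adjusted threshold was 0 in each setting except that with slide as a random block over arrays (estimated correlation 0.40), where it was 717; that fit takes arrays of the same extracts as separate, and it also put the means of Foxc1 at -0.33 and of Foxd1 at -0.20. Probes at least 2-fold lower in every litter numbered 11 with a normexp offset of 16, 41 with either of those sets of values, and 35 to 83 without 1 litter, where 2 litters must pass. Of the genes in the lists other than the marker lists 4 had an unadjusted p under 0.05, beside 2 with either of them, 2 to 4 without 1 litter (2 without litter 121), 8 with slide as a block and 1 by the methods' t-test. Without the replicate block, that is with genotypes unpaired, 1 such gene and 0 adjusted calls were found and the Foxc2 mean was -2.49. By the methods' t-test 71 probes passed the stated fold and unadjusted p, 56 higher and 15 lower, and 0 passed after adjustment. Settings with a strict filter gave no value for Foxc2, Foxd1 and Foxd2, which are not well above background on all arrays. Signal over background limits Foxc2 in litter 121 and Foxd1 in litters 116 and 121.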
